A study of Mus musculus with 27 samples.

Results

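T lymphocytes recognise antigen through the T cell receptor, and the genes described here are 34 genes of that receptor complex and of the T cell lineage. They were chosen by name, with earlier results of these data known. Of the 34, 32 were matched to a probe set and measured among 18194 genes in all. *Lck* and *Tcf7* were not matched in the annotation used and were not analysed here. Each gene is given as the log2 of its array intensity, with intensities under 1 set to 1, and where a gene had several probe sets the brightest on average over the 27 arrays was used. The mice were of the C57L/J, the C57BL/6J and the CBA/J strain. The paper describes the C57L/J and C57BL/6J mice as females, 10 to 12 weeks old, and its methods do not describe the CBA/J mice. The thorax had been exposed to x-rays at 12.5 Gy or at 15 Gy (WTLI, whole thorax lung irradiation), or sham-irradiated at 0 Gy. Lung RNA was taken 24 hours later. There were 9 groups of 3 mice, each mouse gave 1 array from the right upper lobe, and RNA was not pooled. The study designated C57L/J "radiation sensitive" and C57BL/6J "radiation resistant", and CBA/J is a strain prone to pneumonitis. All 3 are inbred strains that carry no transgene. RNA came from a piece of whole lung, so every value is a sum over all cell types in the piece, on some arrays with tissue from beside the lung. Fewer T cells and less RNA per T cell cannot be told apart.

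The T cell receptor signals through the CD3 and zeta chains, whose tails are phosphorylated by Src family kinases and then bound by ZAP-70, which acts on the adaptors LAT and SLP-76. The co-receptors CD4 and CD8 bind MHC molecules on the presenting cell, costimulatory receptors such as CD28 add a further signal, and the interleukin-7 receptor keeps resting T cells alive. Resting lymphocytes are among the most radiosensitive cells of the body. The lung holds both circulating T cells and T cells that reside in the tissue.

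Some arrays carried transcripts of tissue that lies beside the lung. On 9 arrays the mean of the skeletal muscle genes exceeded that of the median array by over 2 log2 units, and on 4 arrays that of the thymocyte, thyroid or lymph node genes did. The 4 were replicate 3 of C57L/J at 15 Gy, replicate 2 of C57BL/6J at 15 Gy, replicate 3 of CBA/J at 12.5 Gy and replicate 3 of sham CBA/J. The C57L/J array also carried thymic epithelium genes, and thymic tissue is itself a source of T cell transcripts. The main counts that rest on this array are therefore given with and without it, while most changes of single genes include it. The mean of 5 genes of the p53 response, which radiation induces, separated the labelled groups, with 11.39 to 12.03 on the irradiated arrays, against 9.47 to 9.85 on the sham arrays.

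Most T cell genes were lower in irradiated lungs at 24 hours. Over the 3 strains, 23 of the 32 measured genes were lower in irradiated than in sham lungs at an adjusted p under 0.05 and none was higher (limma, Benjamini-Hochberg over all genes), where 8.49% of all genes were lower and 5.83% higher by the same rule. The median change of the 32 genes was -0.85 on the log2 scale, and that of all genes was -0.01. The sign did not depend on 1 probe set: 70 of the 71 probe sets of these genes had a lower mean in irradiated lungs, and the exception was a probe set of *Zap70*. In 27 of the 32 genes the mean was lower than sham in all 6 pairs of strain and dose, against 14.7% of all genes. The sham arrays of a strain served both doses, so the 6 pairs are not independent. For *Il7r*, *Il2rb* and *Ets1* all 18 irradiated arrays lay below every sham array of their strain, as they did in 1.2% of all genes.

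The invariant chains that carry the receptor's signal were all lower. All 4, *Cd3d*, *Cd3g*, *Cd3e* and *Cd247*, passed the test, with changes from -1.19 to -0.54. *Cd3d* encodes the delta chain. In C57L/J mice *Cd3d* was 9.15, 9.46 and 9.85 at 0 Gy, 7.77, 7.95 and 7.99 at 12.5 Gy and 7.51, 8.04 and 10.18 at 15 Gy. The C57BL/6J values were 9.27, 8.81 and 9.26 at 0 Gy, 7.34, 7.58 and 7.62 at 12.5 Gy and 7.98, 8.45 and 7.37 at 15 Gy. The CBA/J values were 8.48, 8.64 and 8.73 at 0 Gy, 7.55, 7.45 and 7.80 at 12.5 Gy and 7.77, 7.85 and 7.73 at 15 Gy. On 17 of the 18 irradiated arrays it lay below all sham arrays of its strain, and the exception was replicate 3 of C57L/J at 15 Gy, the array with thymic transcripts, which was the highest of all 27. Over the strains *Cd3d* changed by -1.19 (SE 0.21, adjusted p = 0.000578). The gamma chain gene *Cd3g* had 6.70 to 9.63 on the 18 irradiated arrays (median 7.16), against 7.92 to 9.05 on the 9 sham arrays (median 8.38). It showed the same single exception and changed by -1.05 (SE 0.20, adjusted p = 0.00135). *Cd3e* encodes the epsilon chain. *Cd3e* was 7.92, 8.36 and 9.11 at 0 Gy, 7.39, 7.58 and 7.03 at 12.5 Gy and 7.24, 6.89 and 9.40 at 15 Gy in C57L/J mice. C57BL/6J mice had 7.38, 7.57 and 7.57 at 0 Gy, 6.83, 6.94 and 7.31 at 12.5 Gy and 6.67, 5.60 and 6.74 at 15 Gy. CBA/J mice had 7.11, 7.62 and 7.46 at 0 Gy, 5.93, 6.23 and 7.15 at 12.5 Gy and 6.60, 7.26 and 5.93 at 15 Gy. The C57L/J array with thymic transcripts again stood above every sham array. The change over the strains was -0.86 (SE 0.25, adjusted p = 0.0252). The zeta chain gene *Cd247* had 6.21 to 7.83 on the 18 irradiated arrays (median 6.80), against 6.94 to 8.11 on the 9 sham arrays (median 7.25), a change of -0.54 (SE 0.16, adjusted p = 0.0292). The ranges of irradiated and sham arrays overlapped for *Cd247* within every strain. Of the receptor chains themselves *Tcra* was the one matched to a probe set, and it was dim, under a log2 intensity of 5 on 23 of the 27 arrays and 4.13 on the array with thymic transcripts, so no change is given for it.

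**Figure D1:**
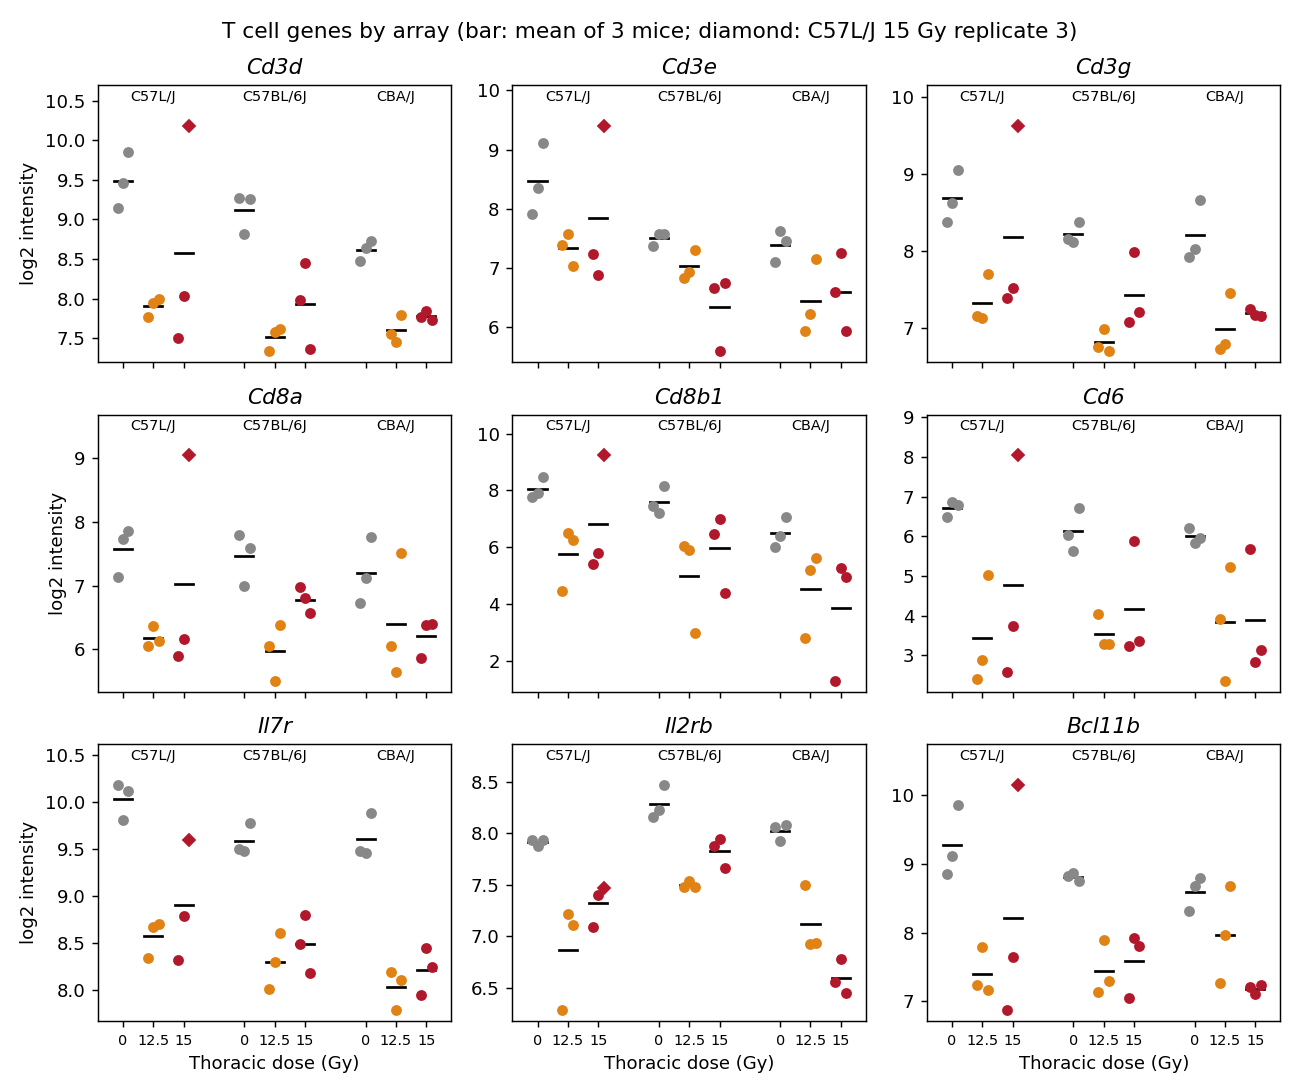
Log2 intensity (vertical axes) of 9 T cell genes on each array against thoracic dose in Gy (horizontal axes) in the 3 strains, with 1 point per mouse and a bar at the mean of 3 mice. In the CD3 and CD8 panels the irradiated points lie below the sham points of their strain apart from a few, and the diamond, C57L/J at 15 Gy replicate 3, stands at 10.18 for *Cd3d* and 8.04 for *Cd6*.

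*Cd3g* and *Cd3d* are neighbours on chromosome 9 that are read in opposite directions, with 1355 bases between their starts (RefSeq, GRCm38.p6), and the start of *Cd3e* lies 27825 bases beyond that of *Cd3d*. Promoter windows of 300 bases, from 250 before to 50 after the start, are shown for the 4 signalling chains, which were lower together, and for *Il7r*, whose change had the lowest p. Capitals mark matches to short strings that transcription factors of T cells are known to bind, searched on both strands. The ETS string is GGAAGT, which reads ACTTCC on the opposite strand. The RUNX string is TGTGGT, whose opposite strand reads ACCACA. The TCF/LEF string is TCAAAG, with CTTTGA as its opposite strand.
Cd3g (chr9:44980382-44980681, minus strand): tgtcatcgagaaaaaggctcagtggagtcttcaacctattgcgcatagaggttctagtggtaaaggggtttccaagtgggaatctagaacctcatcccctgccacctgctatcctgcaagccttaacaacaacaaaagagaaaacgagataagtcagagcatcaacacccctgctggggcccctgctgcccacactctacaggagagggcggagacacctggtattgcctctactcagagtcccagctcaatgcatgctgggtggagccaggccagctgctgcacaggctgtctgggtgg
Cd3d (chr9:44981536-44981835, plus strand): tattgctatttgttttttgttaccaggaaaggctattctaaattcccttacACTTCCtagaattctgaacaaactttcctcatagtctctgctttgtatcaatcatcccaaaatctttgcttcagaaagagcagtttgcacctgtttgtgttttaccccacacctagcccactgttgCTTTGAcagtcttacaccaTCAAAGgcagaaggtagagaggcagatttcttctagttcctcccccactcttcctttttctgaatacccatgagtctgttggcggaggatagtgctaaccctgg
Cd3e (chr9:45009562-45009861, minus strand): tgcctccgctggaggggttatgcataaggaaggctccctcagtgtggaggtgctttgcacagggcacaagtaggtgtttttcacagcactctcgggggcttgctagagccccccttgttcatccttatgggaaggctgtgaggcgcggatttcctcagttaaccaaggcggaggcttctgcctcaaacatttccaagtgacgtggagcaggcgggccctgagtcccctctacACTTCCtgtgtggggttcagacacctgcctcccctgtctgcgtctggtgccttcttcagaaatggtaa
Cd247 (chr1:165788431-165788730, plus strand): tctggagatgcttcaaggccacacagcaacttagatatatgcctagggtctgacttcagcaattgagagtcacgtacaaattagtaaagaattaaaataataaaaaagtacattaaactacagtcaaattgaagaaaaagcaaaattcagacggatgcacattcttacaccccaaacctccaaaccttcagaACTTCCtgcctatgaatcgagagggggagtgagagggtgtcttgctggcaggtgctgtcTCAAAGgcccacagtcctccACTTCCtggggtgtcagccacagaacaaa
Il7r (chr15:9529827-9530126, minus strand): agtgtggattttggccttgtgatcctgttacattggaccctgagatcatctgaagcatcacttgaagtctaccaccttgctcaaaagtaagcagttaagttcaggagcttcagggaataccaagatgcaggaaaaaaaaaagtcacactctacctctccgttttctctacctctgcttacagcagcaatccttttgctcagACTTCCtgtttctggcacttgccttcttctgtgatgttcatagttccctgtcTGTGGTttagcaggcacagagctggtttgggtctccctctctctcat
The window of *Cd3d* held 1 ETS and 2 TCF/LEF strings, that of *Cd3e* 1 ETS string, that of *Cd247* 2 ETS and 1 TCF/LEF string, and that of *Il7r* 1 ETS and 1 RUNX string. None of the 3 strings was in the window of *Cd3g*. In no window did the marked strings overlap. Of the 32 measured genes 21 had at least 1 window in the table, 31 windows in all. The ETS string was in 14 of these 31 windows (45.2%), against 23.8% of the 32851 windows of all genes. The TCF/LEF string was in 10 (32.3%), against 16.0%, and the RUNX string in 6 (19.4%), against 16.8%. By gene, the ETS string was in 10 of the 21 genes, the TCF/LEF string in 10 and the RUNX string in 6. Several of the windows with the ETS string were of 1 gene, *Satb1*. No share by gene is given for all genes, so the shares of windows are not shares of genes. Windows of 1 gene can overlap, and a match shows letters, not binding. The genes with no window in the table were *Cd4*, *Cd8b1*, *Cd2*, *Cd6*, *Cd28*, *Cd69*, *Skap1*, *Sh2d1a*, *Acap1*, *Il2rb* and *Ets1*.

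Of the co-receptors both CD8 genes were lower, while *Cd4*, which was dim, did not pass. *Cd8a*, the alpha chain of the CD8 dimer, had 5.51 to 9.04 on the 18 irradiated arrays (median 6.26), against 6.73 to 7.86 on the 9 sham arrays (median 7.59). It changed by -0.98 (SE 0.29, adjusted p = 0.027), and 16 of 18 irradiated arrays lay below the sham arrays of their strain. The other 2 were replicate 3 of C57L/J at 15 Gy (9.04) and replicate 3 of CBA/J at 12.5 Gy (7.51), both among the arrays with transcripts of neighbouring tissue. *Cd8b1*, the beta chain of conventional cytotoxic T cells, changed by -2.07 (SE 0.56, adjusted p = 0.0154). In C57L/J mice *Cd8b1* was 7.76, 7.90 and 8.48 at 0 Gy, 4.47, 6.50 and 6.27 at 12.5 Gy and 5.40, 5.80 and 9.23 at 15 Gy. The C57BL/6J values were 7.47, 7.21 and 8.14 at 0 Gy, 6.04, 5.92 and 2.97 at 12.5 Gy and 6.47, 7.01 and 4.40 at 15 Gy. The CBA/J values were 6.01, 6.41 and 7.07 at 0 Gy, 2.82, 5.20 and 5.62 at 12.5 Gy and 1.31, 5.27 and 4.97 at 15 Gy. The irradiated values spread over several log2 units and were lowest on an array of CBA/J at 15 Gy. *Cd4*, the co-receptor of helper T cells, lay under a log2 intensity of 5 on 24 of the 27 arrays. *Cd4* was 3.37, 4.96 and 4.01 at 0 Gy, 3.50, 3.90 and 4.57 at 12.5 Gy and 3.81, 3.37 and 7.99 at 15 Gy in C57L/J mice. C57BL/6J mice had 4.44, 4.60 and 4.69 at 0 Gy, 4.13, 3.20 and 3.51 at 12.5 Gy and 3.86, 4.02 and 3.53 at 15 Gy. CBA/J mice had 4.89, 4.26 and 5.21 at 0 Gy, 4.62, 3.27 and 5.66 at 12.5 Gy and 2.57, 3.56 and 2.88 at 15 Gy. Only 1 array stood clearly above the others, the C57L/J array with thymic transcripts. The change was -0.49 (SE 0.40, adjusted p = 0.473), and it did not pass.

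Receptors for adhesion and costimulation were lower in 5 of 6 genes. *Cd6*, a scavenger-type receptor that modulates T cell activation, lay under a log2 intensity of 5 on 13 of the 27 arrays, all of them irradiated. In C57L/J mice *Cd6* was 6.49, 6.87 and 6.79 at 0 Gy, 2.39, 2.88 and 5.03 at 12.5 Gy and 2.58, 3.73 and 8.04 at 15 Gy. The C57BL/6J values were 6.04, 5.63 and 6.72 at 0 Gy, 4.05, 3.28 and 3.28 at 12.5 Gy and 3.24, 5.89 and 3.37 at 15 Gy. The CBA/J values were 6.20, 5.83 and 5.97 at 0 Gy, 3.91, 2.36 and 5.23 at 12.5 Gy and 5.67, 2.83 and 3.14 at 15 Gy. It changed by -2.34 (SE 0.55, adjusted p = 0.0058), the largest fitted change among the 32 genes with the floor of 1. With intensities floored at 32, a log2 of 5, its change was -1.01 (adjusted p = 0.0108, limma), smaller than that of *Cd8b1* (-1.57), *Il7r* (-1.32), *Bcl11b* (-1.26) and *Cd3d* (-1.19) with the same floor. Sham arrays held 5.63 to 6.87, and only 3 of the 18 irradiated arrays were in or above that range. *Cd69*, an early activation antigen that also marks resident lymphocytes, changed by -1.13 (SE 0.20, adjusted p = 0.000648). *Cd2*, the adhesion receptor that binds CD48 in mice and is shared with NK cells, had a median of 7.46 on the 18 irradiated arrays, against 8.51 on the 9 sham arrays, a change of -0.95 (SE 0.15, adjusted p = 0.000164). *Cd5*, a negative regulator of receptor signalling that is also found on some B cells, changed by -0.73 (SE 0.22, adjusted p = 0.0321). The TNF receptor family member *Cd27* changed least among those that passed, by -0.47 (SE 0.13, adjusted p = 0.0206). *Cd28*, the principal costimulatory receptor, had 5.68 to 8.39 on the 18 irradiated arrays (median 6.66), against 6.47 to 7.98 on the 9 sham arrays (median 7.30). Its change of -0.53 (SE 0.21, adjusted p = 0.0945) did not pass. Its 12.5 Gy values in C57L/J were 6.22, 6.47 and 5.86, against 7.47, 7.30 and 7.98 in sham mice, while in C57BL/6J and CBA/J irradiated and sham arrays overlapped.

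Among the 11 kinases and adaptors next to the receptor 6 were lower. *Lcp2*, which encodes SLP-76, had 7.11 to 9.03 on the 18 irradiated arrays (median 7.93), against 8.63 to 9.05 on the 9 sham arrays (median 8.70). It changed by -0.84 (SE 0.14, adjusted p = 0.000288), and its only irradiated value inside the sham range of its strain was 9.03, on the C57L/J array with thymic transcripts. *Skap1*, an adaptor that links the receptor to integrins, had 6.12 to 7.80 on the 18 irradiated arrays (median 6.96), against 7.45 to 8.13 on the 9 sham arrays (median 7.65), a change of -0.74 (SE 0.12, adjusted p = 0.000285). *Txk*, a Tec family kinase, changed by -1.22 (SE 0.30, adjusted p = 0.00784). Its lowest value, 1.96 on CBA/J replicate 3 at 12.5 Gy, was on the array with the highest means of muscle and thyroid transcripts. The C57L/J array with thymic transcripts, which also carried both, had 6.35, the highest of the 18 irradiated arrays. *Acap1*, a GTPase-activating protein for ARF6 that is rich in lymphocytes, changed by -1.02 (SE 0.18, adjusted p = 0.000491). The change was -0.60 (SE 0.17, adjusted p = 0.0232) for *Lat*, the membrane scaffold that ZAP-70 phosphorylates. *Fyb*, the adaptor ADAP, which myeloid cells also express, changed by -0.52 (SE 0.16, adjusted p = 0.0308). The other 4 with negative changes did not pass. *Trat1* gave -0.57 (SE 0.20, adjusted p = 0.0643), and *Sh2d1a*, the adaptor SAP, gave -0.88 (SE 0.36, adjusted p = 0.117). *Ubash3a*, a phosphatase that restrains receptor signalling, gave -0.33 (SE 0.20, adjusted p = 0.309). *Grap2*, which encodes the adaptor GADS, gave -0.95 (SE 0.39, adjusted p = 0.113) and lay under a log2 intensity of 5 on 15 of the 27 arrays.

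*Zap70*, the kinase that docks on the zeta chain, was the only gene with a positive change. Its brightest probe set gave 0.51 (SE 0.33, adjusted p = 0.341). The other 2 probe sets gave changes of -0.58 and -0.34. *Zap70* was 9.60, 9.45 and 8.85 at 0 Gy, 8.97, 9.69 and 9.29 at 12.5 Gy and 9.51, 9.67 and 9.34 at 15 Gy in C57L/J mice. C57BL/6J mice had 9.64, 9.04 and 8.39 at 0 Gy, 9.77, 8.82 and 9.30 at 12.5 Gy and 8.03, 9.19 and 9.28 at 15 Gy. CBA/J mice had 6.44, 6.01 and 9.64 at 0 Gy, 9.90, 9.19 and 8.43 at 12.5 Gy and 9.13, 7.73 and 8.17 at 15 Gy. The sham CBA/J values of 6.44 and 6.01 were the lowest of the 27 and came from the 2 sham CBA/J arrays with muscle transcripts. The other arrays with muscle transcripts had 8.43 to 9.77. Without the 9 arrays with muscle transcripts the change of this probe set was -0.24. That fit left 1 array in several groups. Its only sham CBA/J array, replicate 3 (9.64), was among the 4 with thymocyte, thyroid or lymph node transcripts. Without those 4 arrays the change was 0.94 (adjusted p = 0.0108, limma). The direction of *Zap70* differed between probe sets and with the arrays used.

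Cytokine and chemokine receptors included 2 of the 3 genes in which irradiated and sham arrays separated in every strain, and 3 of the 4 receptors passed. *Il7r*, the interleukin-7 receptor alpha chain, had the lowest p of the 32 genes. In C57L/J mice *Il7r* was 10.18, 9.81 and 10.12 at 0 Gy, 8.34, 8.67 and 8.71 at 12.5 Gy and 8.32, 8.79 and 9.60 at 15 Gy. The C57BL/6J values were 9.50, 9.48 and 9.78 at 0 Gy, 8.01, 8.30 and 8.61 at 12.5 Gy and 8.49, 8.80 and 8.19 at 15 Gy. The CBA/J values were 9.48, 9.46 and 9.88 at 0 Gy, 8.20, 7.79 and 8.11 at 12.5 Gy and 7.95, 8.45 and 8.25 at 15 Gy. No irradiated array reached the sham arrays of its strain, also on the arrays with neighbouring tissue. The change was -1.32 (SE 0.12, adjusted p = 4.19e-07), with a 95% interval from -1.59 to -1.06, and the second probe set of the gene gave -1.51. *Il2rb*, the beta chain shared by the interleukin-2 and interleukin-15 receptors and abundant on NK cells and memory T cells, separated as cleanly. *Il2rb* was 7.94, 7.88 and 7.94 at 0 Gy, 6.28, 7.22 and 7.11 at 12.5 Gy and 7.09, 7.40 and 7.47 at 15 Gy in C57L/J mice. C57BL/6J mice had 8.16, 8.23 and 8.47 at 0 Gy, 7.48, 7.54 and 7.48 at 12.5 Gy and 7.88, 7.95 and 7.66 at 15 Gy. CBA/J mice had 8.06, 7.93 and 8.08 at 0 Gy, 7.50, 6.92 and 6.93 at 12.5 Gy and 6.55, 6.78 and 6.45 at 15 Gy. It changed by -0.87 (SE 0.10, adjusted p = 3.08e-06), and the C57L/J array with thymic transcripts (7.47) stayed under the sham values. *Cxcr6*, a receptor of tissue-resident lymphocytes, had 5.10 to 7.24 on the 18 irradiated arrays (median 6.70), against 7.07 to 7.82 on the 9 sham arrays (median 7.50), a change of -0.90 (SE 0.18, adjusted p = 0.00159). *Ccr9*, the receptor for the chemokine CCL25, changed by -0.40 (SE 0.17, adjusted p = 0.121) and did not pass over the strains. In C57BL/6J at 15 Gy its values were 6.04, 6.52 and 6.17, against 7.49, 7.27 and 7.13 in sham mice.

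Of the nuclear regulators 3 of 4 were lower. *Bcl11b*, a repressor required for T cell commitment and identity, had 6.87 to 10.15 on the 18 irradiated arrays (median 7.28), against 8.32 to 9.86 on the 9 sham arrays (median 8.82). It changed by -1.26 (SE 0.27, adjusted p = 0.00311), and all 4 of its probe sets had negative changes, from -2.46 to -0.85. *Ets1*, a transcription factor of lymphocytes that endothelial cells also express, had 11.36 to 12.20 on the 18 irradiated arrays (median 12.03), against 12.11 to 13.10 on the 9 sham arrays (median 12.80). It changed by -0.77 (SE 0.11, adjusted p = 5.47e-05), with no overlap in any strain. *Lef1*, a partner of beta-catenin in naive T cells, changed by -0.78 (SE 0.14, adjusted p = 0.000531). *Satb1*, a chromatin organiser abundant in thymocytes, changed by -0.70 (SE 0.24, adjusted p = 0.059) and did not pass. In C57L/J mice *Satb1* was 9.49, 9.73 and 10.26 at 0 Gy, 8.29, 8.87 and 8.60 at 12.5 Gy and 8.43, 8.54 and 11.10 at 15 Gy. The C57BL/6J values were 9.61, 9.31 and 9.88 at 0 Gy, 8.83, 8.86 and 8.91 at 12.5 Gy and 8.72, 9.08 and 8.50 at 15 Gy. The CBA/J values were 9.64, 9.50 and 9.89 at 0 Gy, 8.95, 9.02 and 10.45 at 12.5 Gy and 8.79, 9.03 and 9.01 at 15 Gy. The 2 highest *Satb1* values of the 27, 11.10 and 10.45, were on the 2 irradiated arrays with the highest thymic epithelium genes. Without the 4 arrays with thymocyte, thyroid or lymph node transcripts its change was -0.92 (SE 0.10, adjusted p = 1.33e-05, limma).

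**Figure D2:**
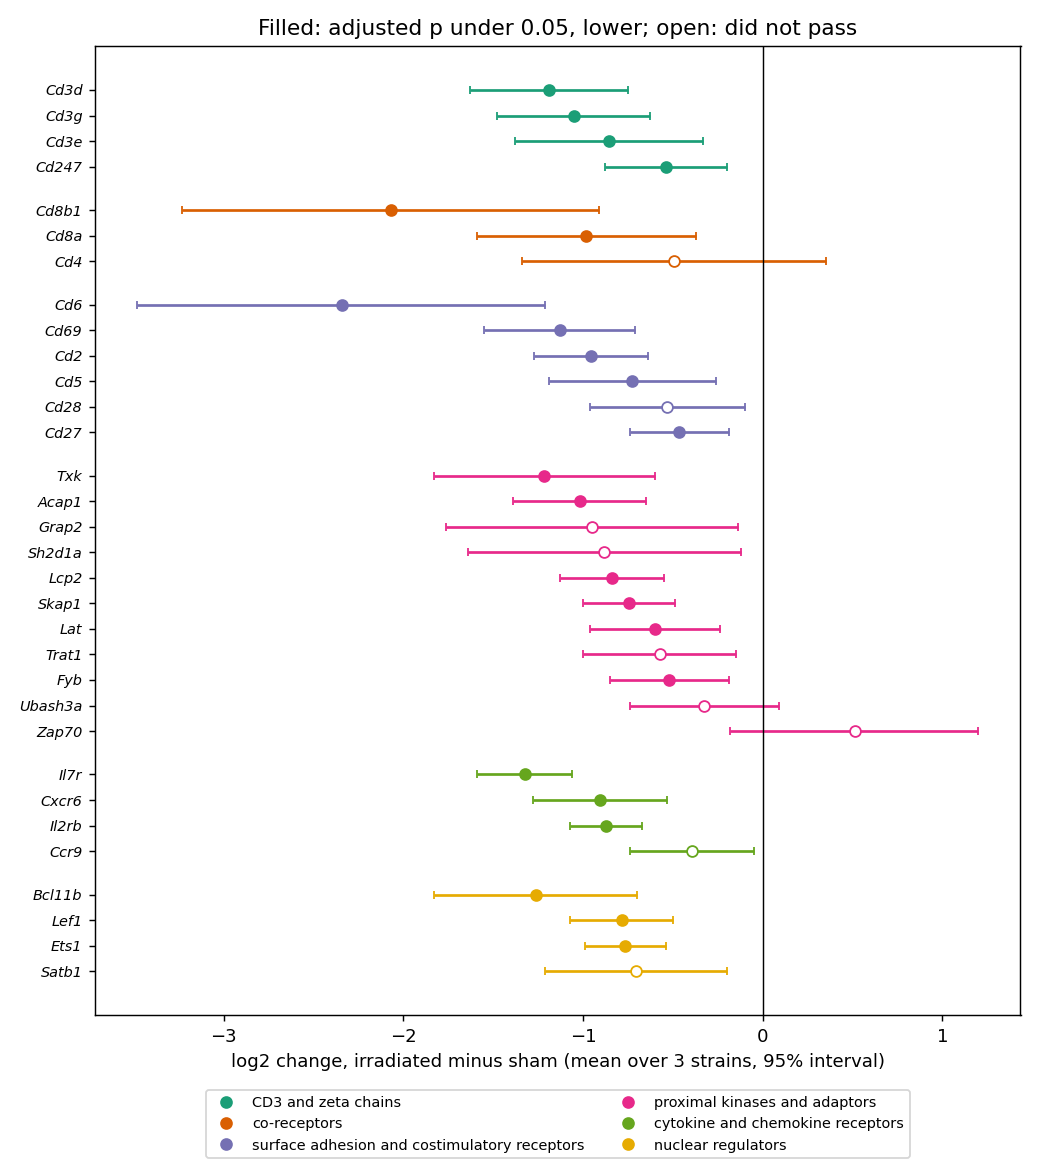
Log2 change between irradiated and sham lungs over the 3 strains (horizontal axis) for the 32 T cell genes grouped by role, with 95% intervals as bars, filled points for an adjusted p under 0.05 and open points for the rest. Of the 32 points 31 lie below 0, and *Zap70* lies at 0.51. The lowest point, *Cd6* at -2.34, rests on dim irradiated values and is -1.01 with a floor of 32.

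The count over the strains moved with the arrays that carried neighbouring tissue. Without the 4 arrays with thymocyte, thyroid or lymph node transcripts 29 of 32 genes were lower and 1, *Zap70*, was higher (7.66% of all genes were lower). The 29 held all 23 of the first count together with *Cd4*, *Cd28*, *Trat1*, *Sh2d1a*, *Ccr9* and *Satb1*. Leaving out replicate 3 of C57L/J at 15 Gy alone also gave 29. The changes were then -1.32 for *Cd3d*, -0.99 for *Cd3e*, -1.15 for *Cd8a* and -2.27 for *Cd8b1*. They were -0.74 for *Cd4*, -0.63 for *Cd28*, -0.64 for *Trat1*, -1.05 for *Sh2d1a* and -0.47 for *Ccr9*. Without the 9 arrays with skeletal muscle transcripts the median change of the 32 genes was -0.85, with -0.49 for *Cd247* and -0.45 for *Fyb*. No count is given for that fit, which left 1 array in several groups, sham CBA/J among them.

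**Figure D3:**
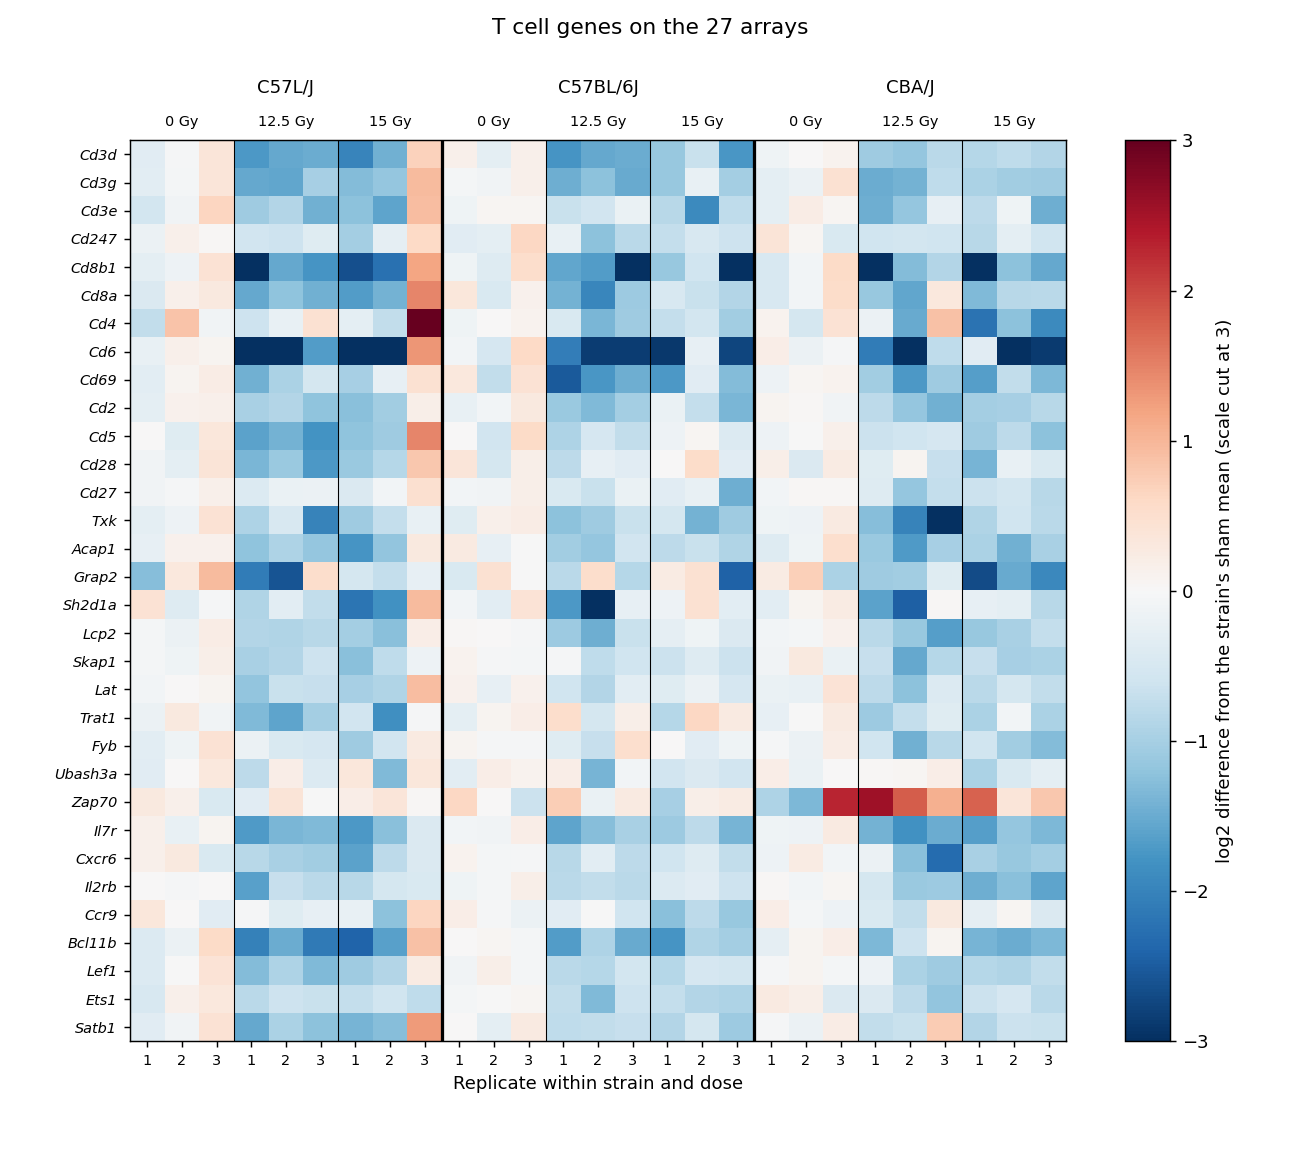
Difference in log2 intensity from the sham mean of the strain (colour, blue lower and red higher) for the 32 T cell genes (rows) on the 27 arrays (columns, by strain, dose in Gy and replicate). The column of C57L/J at 15 Gy replicate 3 is mostly red, with a median difference of 0.47, while the medians of the other 17 irradiated arrays lie between -1.20 and -0.41.

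Each dose was then set against sham within a strain, with a threshold of 0.01 on the unadjusted p as in the methods (limma, 6 arrays a pair). At 12.5 Gy 20 of the 32 genes were lower in C57L/J (2.85% of all genes), 15 in C57BL/6J (2.67%) and 9 in CBA/J (2.34%). At 15 Gy 1 was lower in C57L/J (1.08% of all genes), 10 in C57BL/6J (2.22%) and 19 in CBA/J (3.2%). At an adjusted p under 0.05 the counts at 12.5 Gy were 1 in C57L/J (0.324% of all genes), 2 in C57BL/6J (0.363%) and 0 in CBA/J (0.022%), and at 15 Gy 0 in C57L/J (0%), 0 in C57BL/6J (0.022%) and 6 in CBA/J (0.588%). Genes that passed it were *Il7r* in C57L/J at 12.5 Gy (log2 change -1.47, adjusted p = 0.0431), and *Cd3d* (-1.60, adjusted p = 0.0387) and *Cd3g* (-1.41, adjusted p = 0.0349) in C57BL/6J at 12.5 Gy. In CBA/J at 15 Gy they were *Il2rb* (-1.43, adjusted p = 0.0189), *Bcl11b* (-1.41, adjusted p = 0.0269), *Cd2* (-0.96, adjusted p = 0.0385), *Lef1* (-0.84, adjusted p = 0.0409), *Il7r* (-1.39, adjusted p = 0.0483) and *Cd3d* (-0.83, adjusted p = 0.0483). By ranks, irradiated and sham groups did not overlap, with all irradiated values lower, for 25, 21 and 21 of the 32 genes at 12.5 Gy in the same order of strains (11.3% of all genes in each) and for 4, 21 and 25 at 15 Gy (9.02%, 11.9% and 12.7%). The median changes were -1.08, -0.77 and -0.87 at 12.5 Gy and -0.59, -0.67 and -0.91 at 15 Gy.

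**Figure D4:**
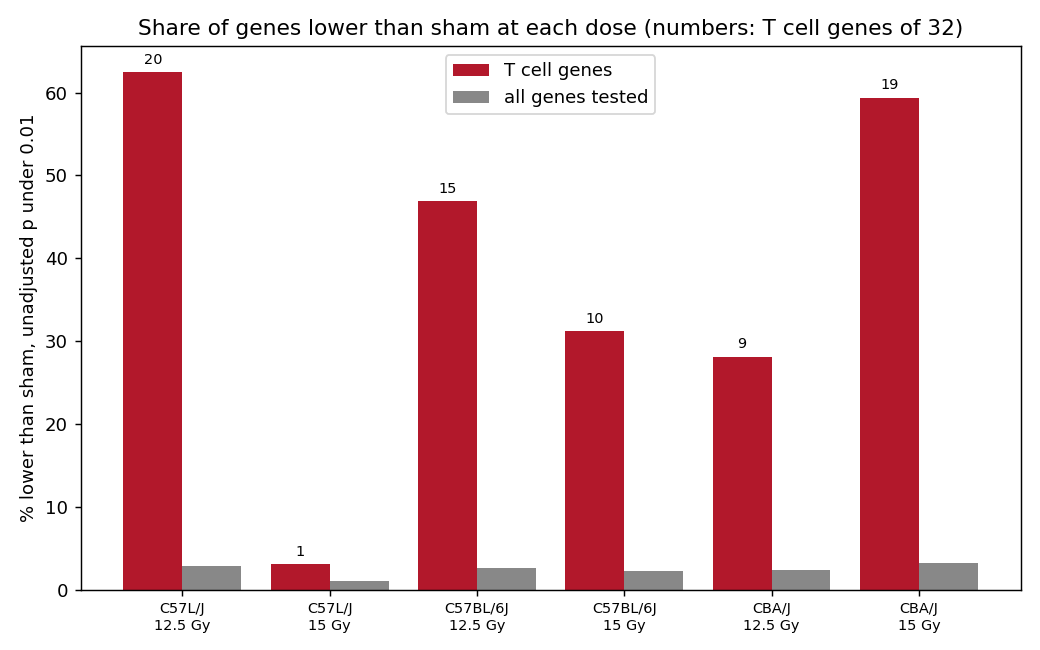
Percent of genes lower than sham at an unadjusted p under 0.01 (vertical axis) for each strain and dose, for the 32 T cell genes (red, with their number) and all 18194 genes (grey). The T cell bars stand above the grey bars in every pair, least in C57L/J at 15 Gy with 1 of 32 genes.

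The low count in C57L/J at 15 Gy came with 1 array. Replicate 3 of that group was the highest of its group for 29 of the 32 genes and above the sham mean of the strain for 24. Its values against those of replicates 1 and 2 were 7.99 against 3.81 and 3.37 for *Cd4*, 10.15 against 6.87 and 7.64 for *Bcl11b*, and 8.71 against 6.06 and 6.20 for *Cd5*. The same array gave 10.67 for *Rag1*, against 0.41 and 0.00 on the other 2, 10.47 for the thymus-specific protease gene *Prss16*, against 6.51 and 6.76, and 14.30 for thyroglobulin, *Tg*, against 3.06 and 2.99. Its list means were 8.90 for thymic epithelium, 8.35 for immature thymocyte, 8.77 for lymph node stroma, 10.55 for thyroid and 13.69 for skeletal muscle genes, against at most 5.92, 4.63, 5.46, 6.09 and 6.04 on the other 2 arrays of the group. The part of these transcripts in the T cell gene values was not tested. Without this array 16 of the 32 genes were lower in C57L/J at 15 Gy at an unadjusted p under 0.01 (2.11% of all genes), and the median change was -1.07. *Il2rb* and *Ets1* were among the genes for which the array stayed below all sham arrays of the strain.

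**Figure D5:**
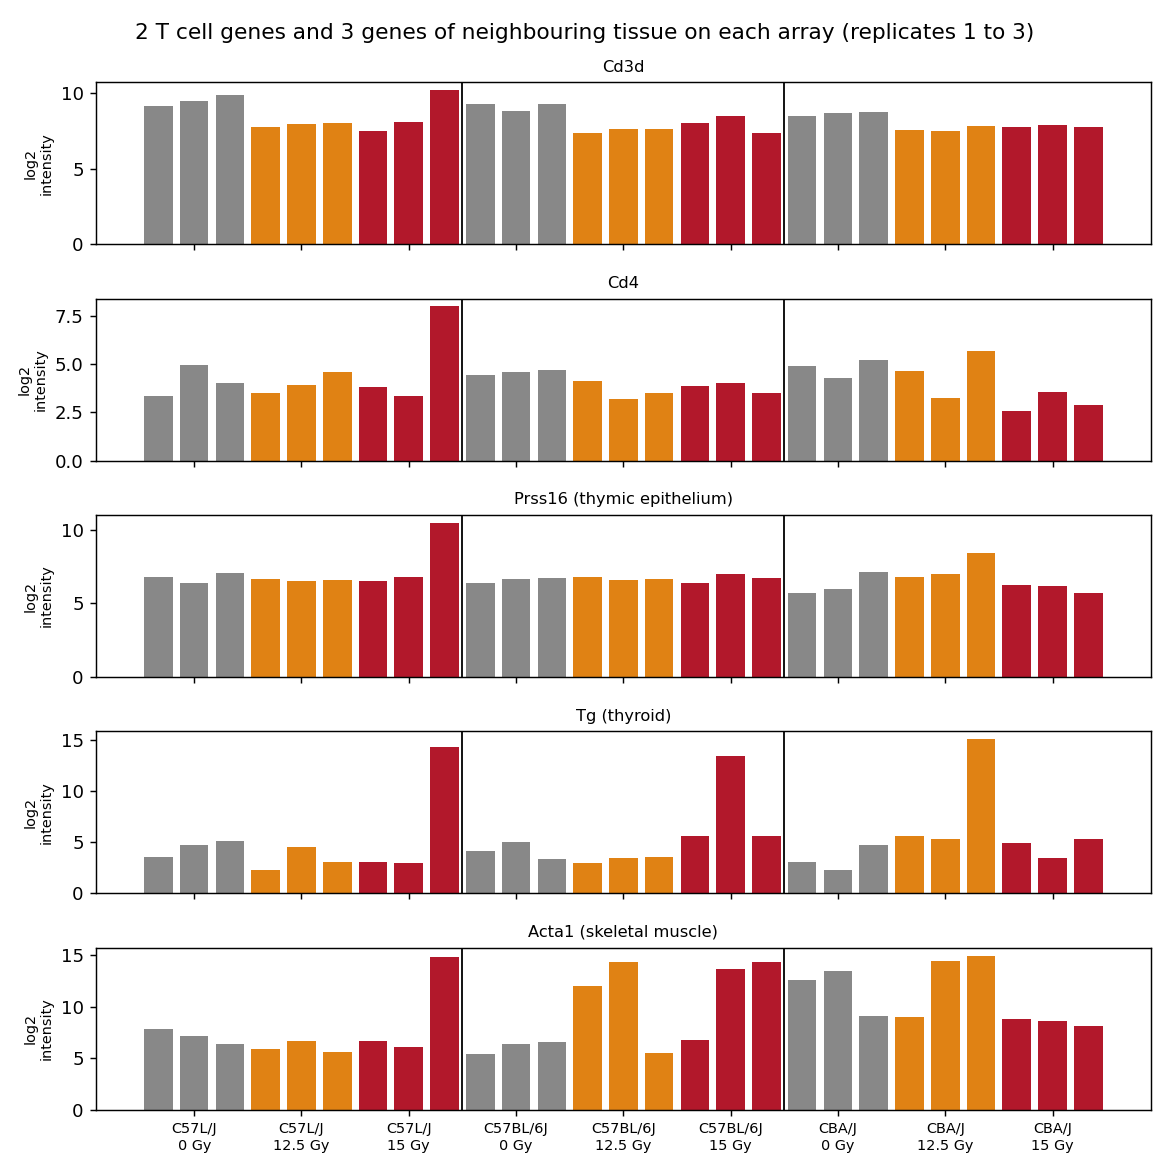
Log2 intensity (vertical axes, from 0) of *Cd3d*, *Cd4*, *Prss16* (thymic epithelium), *Tg* (thyroid) and *Acta1* (skeletal muscle) on each of the 27 arrays, in order of replicate within strain and dose, with sham arrays grey, 12.5 Gy orange and 15 Gy red. C57L/J at 15 Gy replicate 3 is the highest array for *Cd3d* (10.18), *Cd4* (7.99) and *Prss16* (10.47).

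Neighbouring tissue was unevenly spread over the other groups too. Replicate 3 of CBA/J at 12.5 Gy had 15.07 for *Tg*, 8.20 for *Rag1* and 10.45 for *Satb1*, and was the highest of its group for 17 of the 32 genes. Replicate 2 of C57BL/6J at 15 Gy had 13.46 for *Tg* and 10.52 for the lymph node gene *Glycam1*, and was the highest of its group for 25. Sham CBA/J replicate 3 had 10.52 for *Glycam1* and was the highest of its group for 20. Sham C57L/J replicate 3 had 7.48 for *Rag1*, a mean of the immature thymocyte genes 1.61 above the median array, under the limit of 2, and was the highest of its group for 22. Without it 18 of the 32 genes were lower over the strains, the lowest count with 1 array left out. *Rag1* reached 6.91 to 7.48 on 4 of the 9 sham arrays, with 0.69 to 3.00 on the other 5. The part of these tissues in the T cell gene values of each array was not tested beyond leaving arrays out.

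Few genes of any kind passed a test of 15 against 12.5 Gy, and no T cell gene did. Over the 3 strains none of the 32 genes differed between 15 and 12.5 Gy at an unadjusted p under 0.01 in either direction (0.786% of all genes did), and 4 had an unadjusted p under 0.05 (limma). The mean was higher at 15 than at 12.5 Gy for 25 genes and lower for 7, with a median difference of 0.17. Without replicate 3 of C57L/J at 15 Gy the mean was higher for 20 genes and lower for 12, with a median difference of 0.05. With all arrays the gene with the lowest p was *Lcp2*, with a difference of 0.41 (95% interval 0.08 to 0.74, adjusted p = 0.999, limma). For *Cd3d* the difference was 0.43 (95% interval -0.08 to 0.93), and for *Il7r* it was 0.23 (95% interval -0.07 to 0.53). Without that array the differences were 0.26 for *Lcp2* (95% interval 0.02 to 0.51), 0.16 for *Cd3d* (95% interval -0.12 to 0.44) and 0.12 for *Il7r* (95% interval -0.14 to 0.37). The half-widths of the intervals with all arrays ran from 0.23 to 1.34 with a median of 0.49. The count at p under 0.01 was also 0 without that array. It was 1 without C57L/J replicate 1 or 2 at 15 Gy or C57BL/6J replicate 3 at 12.5 Gy, and 2 without CBA/J replicate 1 at 12.5 Gy.

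The strains were compared by the difference of their responses, each taken as the mean of both irradiated groups minus sham. None of the 32 genes differed between strains at an unadjusted p under 0.01, for C57L/J against C57BL/6J (1.15% of all genes), CBA/J against C57BL/6J (1.43%) or CBA/J against C57L/J (1.14%). So few calls among 32 genes are close to these shares. *Trat1*, a transmembrane adaptor of the receptor complex, came closest between C57L/J and C57BL/6J. *Trat1* was 6.63, 7.11 and 6.70 at 0 Gy, 5.49, 5.23 and 5.79 at 12.5 Gy and 6.25, 4.98 and 6.77 at 15 Gy in C57L/J mice. C57BL/6J mice had 5.71, 6.09 and 6.19 at 0 Gy, 6.52, 5.46 and 6.18 at 12.5 Gy and 5.15, 6.62 and 6.27 at 15 Gy. Irradiated C57L/J arrays mostly lay below their sham arrays, while in C57BL/6J they overlapped. The response of *Trat1* was more negative in C57L/J, with a difference of -1.10 (95% interval -2.13 to -0.06, adjusted p = 1, limma). *Il2rb* had the lowest p between CBA/J and C57BL/6J, with a difference of -0.55 (95% interval -1.04 to -0.05, adjusted p = 0.804, limma). Between CBA/J and C57L/J it was *Cd27*, with -0.57 (95% interval -1.25 to 0.10, adjusted p = 0.998, limma). For *Cd3d* the differences were 0.14 (95% interval -0.94 to 1.22), 0.47 (-0.61 to 1.54) and 0.33 (-0.75 to 1.40) in the same order of pairs. These responses hold replicate 3 of C57L/J at 15 Gy. Without it the *Cd3d* differences were -0.26 (95% interval -0.84 to 0.32), 0.47 (-0.11 to 1.04) and 0.73 (0.15 to 1.31, adjusted p = 0.773), so the first changed sign. *Trat1* then differed by -1.29 between C57L/J and C57BL/6J (95% interval -2.27 to -0.31, adjusted p = 0.745, limma). With all arrays the half-widths between C57L/J and C57BL/6J ran from 0.49 to 2.85 with a median of 1.04, wider than the median response of the 32 genes. Without replicate 3 of C57L/J at 15 Gy the difference between these strains was negative for 24 genes and positive for 8. Its median was then -0.36, and 3 genes had an unadjusted p under 0.05 (limma), against 1 with all arrays. The direction of the 32 genes as a set was not tested. Leaving out replicate 3 of C57L/J at 15 Gy made the count between C57L/J and C57BL/6J 1, *Cd5*, with a difference of -0.92 (95% interval -1.51 to -0.33, adjusted p = 0.57, limma), and leaving out replicate 1 of C57BL/6J at 15 Gy also made it 1. Between CBA/J and C57BL/6J it was 1 without replicate 1 of C57L/J at 12.5 Gy, replicate 1 of CBA/J at 12.5 Gy or sham CBA/J replicate 3, and the last also gave 1 between CBA/J and C57L/J.

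With all arrays the counts of T cell genes that passed between sham lungs of the strains were close to the shares of all genes. At an unadjusted p under 0.01 none of the 32 genes differed between sham C57L/J and sham C57BL/6J (2.71% of all genes) or between sham CBA/J and sham C57BL/6J (5.56%). The count was 1, *Zap70*, between sham CBA/J and sham C57L/J (6.38%), with a difference of -1.94 (adjusted p = 0.138, limma), and this rests on the 2 CBA/J arrays named above. The count was 2 without replicate 3 of C57L/J at 15 Gy, and 0 without sham C57L/J replicate 1 or 2, sham CBA/J replicate 1 or 2, sham C57BL/6J replicate 2, or any of 6 irradiated arrays. Leaving out sham C57BL/6J replicate 2 gave 1 gene between C57L/J and C57BL/6J, and leaving out sham CBA/J replicate 3 gave 1 between CBA/J and C57BL/6J. Without the arrays with thymocyte, thyroid or lymph node transcripts the count between sham CBA/J and sham C57L/J was higher, as given further below. No share of all genes is given for that fit, so closeness to the shares holds for all arrays only. *Cd69* was 6.38, 6.79 and 6.93 in sham C57L/J lungs, against 8.08, 7.03 and 8.19 in sham C57BL/6J lungs. The difference was -1.07 (95% interval -1.92 to -0.22, adjusted p = 0.452, limma). *Cd3e* was 7.92, 8.36 and 9.11 in sham C57L/J lungs, against 7.38, 7.57 and 7.57 in sham C57BL/6J lungs, a difference of 0.96 (95% interval -0.09 to 2.01).

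Other genes of T cell receptor signalling and of T cell traffic were also lower. Their lists were chosen with earlier results of these data known, so the counts are not independent support. Of 27 further signalling genes measured, 14 were lower at an adjusted p under 0.05 and none higher (limma), with a median change of -0.35, where 8.49% of all genes were lower and 5.83% higher. Largest among them were *Rhoh*, a GTPase needed for ZAP-70 function (-1.51, adjusted p = 0.000466), *Rasgrp1*, the exchange factor that activates Ras downstream of diacylglycerol (-1.11, adjusted p = 0.000298), and *Was*, a regulator of actin in blood cells (-0.87, adjusted p = 9.11e-05). Of 18 homing and costimulation genes 10 were lower and none higher by the same rule, with a median change of -0.45. *Itgae*, the CD103 integrin chain of intraepithelial T cells and of some dendritic cells, had the largest change (-2.08, SE 0.17, adjusted p = 7.28e-08), ahead of *Ccr6* (-1.48, adjusted p = 0.000222), *Ccr7*, which guides naive cells to lymph nodes (-1.42, adjusted p = 5.71e-05), and *Cd96* (-1.09, adjusted p = 0.0385).

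Genes of other leukocytes were lower too, by the same threshold of an adjusted p under 0.05 (limma), which 8.49% of all genes passed as lower. All 9 NK cell genes were lower, with a median change of -1.04 and the largest for *Klrd1* (-1.28) and *Gzma* (-1.27). Of 9 B cell genes 8 were lower, with a median of -1.63 and the largest for *Cd79a* (-2.04), a chain of the B cell receptor complex. Of 10 pan-leukocyte genes 9 were lower (median -1.11), the largest for *Coro1a* (-1.43), an actin-binding protein of leukocytes, and *Cd37* (-1.37). Among 5 genes of type 2 innate lymphoid cells 1 was lower, *Gata3* (-0.80), which T cells also express. Several of the 32 genes are shared with NK cells, B cells or myeloid cells, so these lists are not independent of each other. These lists too were chosen with earlier results of these data known. By contrast the 7 lung epithelium genes had a median change of -0.08 and none passed, and of 7 macrophage genes *Csf1r* (-0.32) and *Itgax* (-0.55) passed. Of 6 endothelial genes 3 were lower, *Kdr*, *Tek* and *Tie1*, with changes from -0.46 to -0.39. None of the thymocyte, thymic epithelium, lymph node or skeletal muscle genes passed, though all 10 muscle genes had positive changes, from 0.73 to 1.57. All 5 genes of the p53 response were higher, with 3.16 for *Cdkn1a*.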

How the data were processed

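Lung RNA of 27 mice, 3 in each of 9 groups of strain and dose, was measured on 27 Affymetrix mouse genome arrays. The deposited values are linear intensities that the authors produced with Affymetrix Expression Console 1.1, and every array had the same trimmed mean of 500.0 (2% trimmed) and a median of 127.6 to 167.0. Intensities under 1 (37 to 111 per array) were set to 1 and the deposited intensity was taken to log2. Of 45101 probe sets 34958 had a single gene symbol in the platform annotation, 34754 of them a current one, 932 had several and 9211 had none. Each of 18194 genes was represented by its brightest probe set. The number of arrays per group limits the precision.

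Each dose was compared with sham within a strain by limma 3.58.1 (R 4.3.3) on 6 arrays, at the p threshold of 0.01 in the methods, with Benjamini-Hochberg adjusted p beside it. Irradiated against sham over the strains, at an adjusted p under 0.05, and the dose, strain and sham contrasts, at p under 0.01, came from a 9-group limma fit of 27 arrays. Arrays were counted as holding another tissue where its list mean lay over 2 log2 units above the median array. Recovery was checked in simulated data with known changes (200 changed of 18194 genes). At p under 0.01 the fit of C57L/J at 12.5 Gy found 51% of genes changed by 1 log2 unit and 87% of those changed by 2. At an adjusted p under 0.05 the same fit found 8% and 60%. A low adjusted count in a single pair is therefore not evidence that genes were unchanged.

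The members and the gene lists were chosen with earlier results of these data known. Every member could be named, and of each other list up to 4 genes with the largest change at an adjusted p under 0.05. Promoter sequences were RefSeq's on GRCm38.p6. Alternatives covered the probe set, normalization, floor, filter, variance model, threshold, replicate block and arrays left out.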

Additional observations from a re-analysis of the deposited data

How the results depend on the processing

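Over the strains the count of lower T cell genes lay between 23 and 29 under the other settings for probe sets, normalization, floor, filter, threshold, variance model, replicate block and tissue arrays, and between 18 (without sham C57L/J replicate 3) and 29 (without C57L/J replicate 3 at 15 Gy) with 1 array left out. Single pairs moved more. In the order C57L/J 12.5 and 15 Gy, C57BL/6J 12.5 and 15 Gy, CBA/J 12.5 and 15 Gy, the counts of 20, 1, 15, 10, 9 and 19 became 1, 0, 2, 0, 0 and 6 at an adjusted p under 0.05. The methods' t-test (a random variance test) gave 20, 1, 15, 10, 9 and 19 at its threshold and 1, 0, 2, 0, 0 and 5 after Benjamini-Hochberg adjustment. With all 27 arrays in the fit, C57L/J at 15 Gy had 4 (2.98% of all genes) and CBA/J at 15 Gy 11 (3.28%). C57BL/6J then had 8 at 12.5 Gy (3.62%) and 3 at 15 Gy (4.11%). Without the skeletal muscle arrays C57L/J at 15 Gy had 16. In both C57BL/6J pairs and in CBA/J at 15 Gy that left 1 array in a group, with median changes of -0.68, -0.71 and -1.06. CBA/J at 12.5 Gy could not be fitted for want of replicates. Without the thymus, thyroid or lymph node arrays C57L/J at 15 Gy also had 16 (2.11% of all genes). In this pair both settings leave out replicate 3 at 15 Gy alone, so they are the same fit. In C57BL/6J at 15 Gy the most variable probe set and the mean of probe sets each gave 6 (1.25% and 1.56% of all genes). The causes were not tested, and fits with arrays left out also hold fewer arrays.

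Leaving out 1 array gave 13 to 18, 0 to 16, 8 to 17, 3 to 13, 4 to 10 and 10 to 16 in the order above. For C57L/J the lowest counts were 13 at 12.5 Gy without sham replicate 2 (2.03% of all genes) and 0 at 15 Gy. The count of 0 came without sham replicate 2 (0.517%) or 3 (0.528%), or without replicate 1 (0.967%) or 2 (1.22%) at 15 Gy. For C57BL/6J they were 8 at 12.5 Gy (2.07%) and 3 at 15 Gy (1.56%), both without sham replicate 3. For CBA/J they were 4 at 12.5 Gy without sham replicate 2 (1.32%) and 10 at 15 Gy without replicate 3 of that group (2.45%). C57BL/6J at 12.5 Gy also had 9 without sham replicate 1 or its own replicate 1. C57BL/6J at 15 Gy had 5 without sham replicate 1, 6 without sham replicate 2, 5 without its own replicate 1 and 4 without its own replicate 3. CBA/J at 12.5 Gy had 5 without its own replicate 2.

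The contrast of doses gave 0 to 2 genes with 1 array left out, each contrast of responses 0 to 1, and the sham contrasts 0 to 1 for C57L/J and for CBA/J against C57BL/6J and 0 to 2 for CBA/J against C57L/J. Without the thymus, thyroid or lymph node arrays the response of CBA/J differed from that of C57BL/6J and of C57L/J in 1 gene each, and the sham contrasts gave 1 (C57L/J against C57BL/6J), 1 (CBA/J against C57BL/6J) and 5 (CBA/J against C57L/J). No share of all genes is given for that fit, so the count of 5 cannot be set against one. The most variable probe set gave 1, 1 and 2 in the same order of sham contrasts. The mean of probe sets gave 1 for C57L/J against C57BL/6J and 0 for CBA/J against C57L/J, where the adjusted p also gave 0. Sham *Zap70* in CBA/J against C57L/J ran from -3.08 to -1.26 with 1 array left out. It was 0.34 without the muscle arrays, which left 1 sham CBA/J array. Over the strains *Zap70* was -0.13 by the mean of probe sets and -0.24 without the muscle arrays, and *Cd4* was 0.18 with a floor of 32.

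The labels name no litter or day shared by equal replicate numbers, and in no pair did all 3 same-numbered correlations exceed 0.1, so the numbers were not taken as pairs. With the replicate block the counts were 18, 0, 10, 3, 10 and 11 in the order above and 24 over the strains, with 1 for sham C57L/J against C57BL/6J and 0 for sham CBA/J against C57L/J.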
